A study of Mus musculus with 6 samples.

Results

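The forkhead genes described here are Foxc1, Foxc2, Foxf1, Foxf2, Foxp1, Foxp2, Foxp4, Foxo1 and Foxo3, taken by symbol as members of the Foxc, Foxf, Foxp and Foxo families. All 9 were among the 15330 genes of the deposited table, and all 9 passed the minimum mean of 10 normalized counts, which removed no gene. RNA was measured by poly(A) RNA-seq in micro-dissected mouse embryonic hearts on embryonic day 9.5, a stage at which valve cushions and outflow tract are taking shape. The groups were 3 wild-type libraries and 3 libraries from embryos homozygous for H2-URI d/d, a CRISPR-Cas9 deletion of 373 kb of the regulatory interval upstream of Hand2 (called deletion below). Each group held 2 libraries described as F and 1 described as M, and all carried batch 1. The strain, the number of founder lines, and whether hearts were pooled are unknown from the labels, so the spread behind each p-value may be technical. The study asked what this interval does for Hand2 and for the genes downstream of it.

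Forkhead factors bind DNA through a winged-helix domain shared by the whole family. Foxc1 and Foxc2 act in head and paraxial mesoderm, endothelium and the second heart field, and mice without them have outflow tract and vessel defects. Foxf1 and Foxf2 mark the splanchnic mesenchyme around the gut and respond to hedgehog signals from the endoderm. Foxp1, Foxp2 and Foxp4 form dimers with each other and repress transcription, and Foxp1 and Foxp4 are needed for normal heart development. Foxo1 and Foxo3 are kept out of the nucleus by Akt and control cell cycle, metabolic and vascular genes, and Foxo1 is essential for vessel formation in the embryo.

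Library totals ran from 25583210 to 32043595 recovered reads, and the lowest member, Foxf2, still had 16 reads in its lowest library. Hand2, the gene the interval belongs to, stood at 3789 to 4407 normalized counts in wild-type and 1025 to 1163 in deletion libraries. Columns were given to samples by the code in the sample title. The record attached to 4 of the 6 files names a sample of the opposite group, and read that way Foxc1 had a log2 fold change of 0.40 and Foxo1 of 0.06, with 0 genes called in either direction. That reading would put Hand2 values of 4407, 1025 and 1158 in the wild-type group and 3911, 3789 and 1163 in the deletion group. Each group would then mix high and low Hand2 libraries, whereas the titles separate them. Cardiomyocyte genes were abundant in all 6 libraries, with a summed level of 10 markers from 857983 to 979370 normalized counts in wild-type and 909770 to 995482 in deletion libraries. In these bulk samples, fewer cells of a type and less RNA per cell cannot be told apart.

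Of the 9 forkhead genes, 2 fell in the deletion, Foxc1 to 59.0% and Foxo1 to 73.8% of the wild-type mean, and 0 rose; 3.05% of all genes were called in either direction. The test was limma on log2(normalized count + 1) over all genes, with 0.05 as the threshold of the Benjamini-Hochberg adjusted p, and with it 1.5% of all genes (230) were called lower and 1.55% (237) higher. That split was 209 lower and 393 higher after rescaling to equal totals without haemoglobin genes, and 305 lower and 191 higher once a dependence on transcript length and GC was removed. The 7 other members did not pass, with log2 fold changes from −0.22 for Foxf2 to 0.47 for Foxp2. At an unadjusted p under 0.05 there were 4 of 9 members, against 21.4% of all genes. The groups did not overlap for 3 of 9 members, Foxc1, Foxo1 and Foxo3, and for 27.4% of all genes, so that count stood near the background. The median log2 fold change of the 9 was 0.04 and that of all genes −0.01, with members on both sides of 0. Without regard to sign, the median change was 0.30 for the 9 and 0.14 for all genes, a difference that was not tested. The plot of values by library and the plot of fold changes show these 9 genes.

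**Figure D1:**
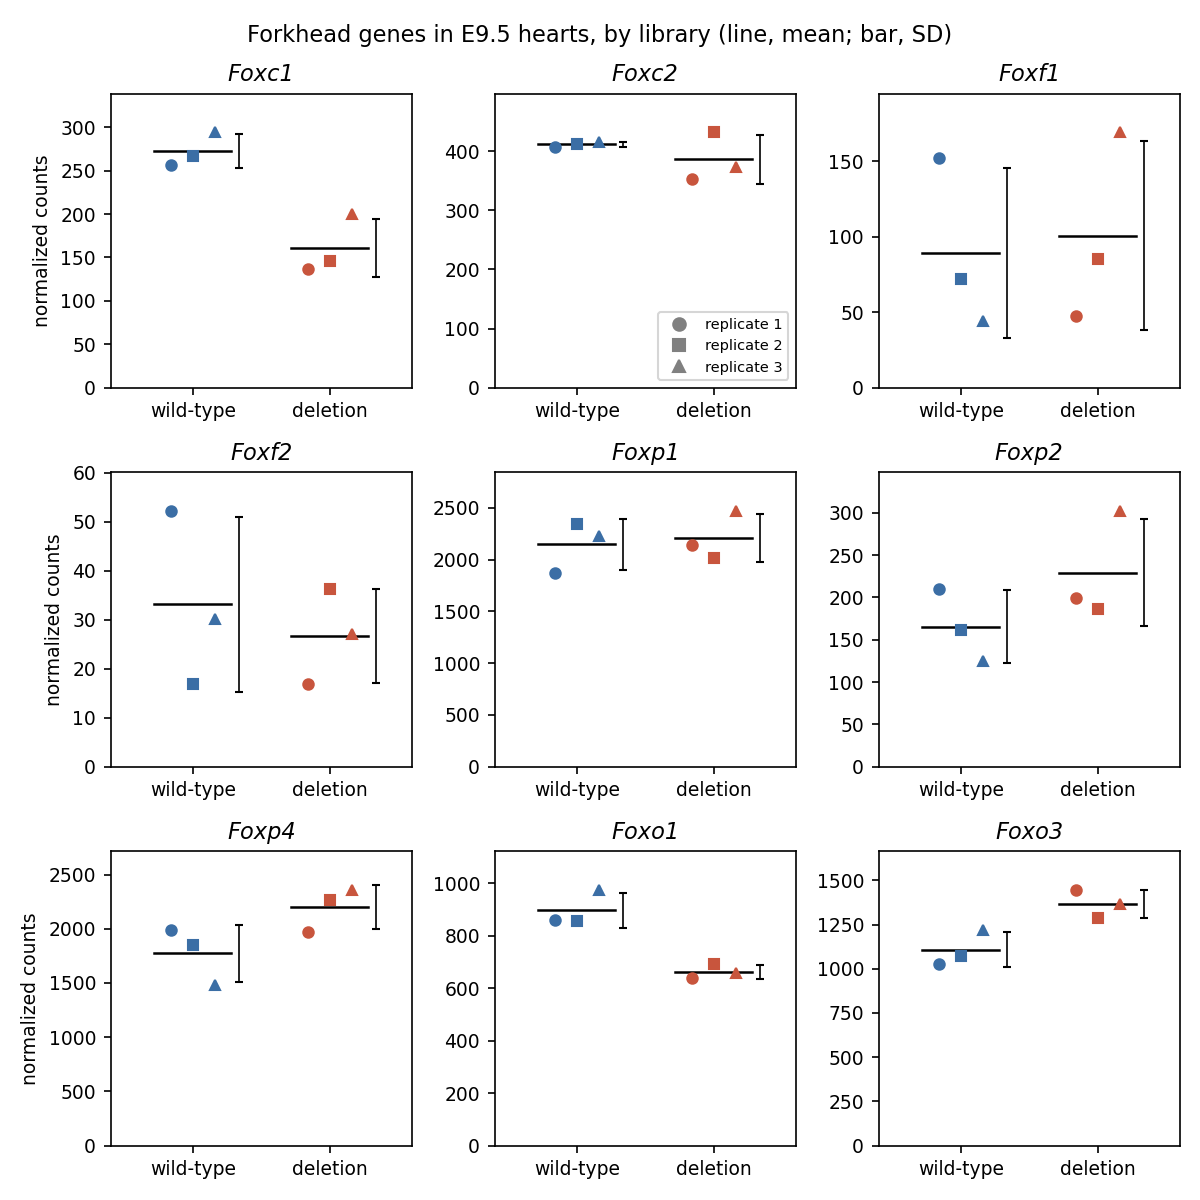
Normalized counts (y axis, from 0) of the 9 forkhead genes in the 3 wild-type (blue) and 3 deletion (red) libraries, with replicates as symbols, the group mean as a line and the SD as a bar. Foxc1 and Foxo1 are lower and Foxo3 higher in every deletion library than in any wild-type library, and the Foxf genes spread widely within both groups.

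**Figure D2:**
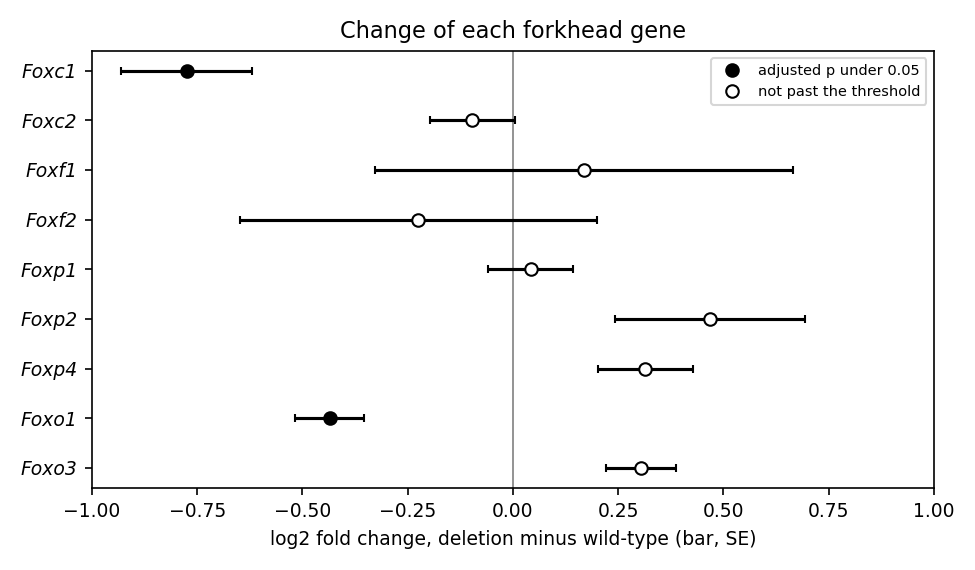
Log2 fold change, deletion minus wild-type (x axis), of each forkhead gene with its standard error. Filled points mark Foxc1 (−0.77) and Foxo1 (−0.44), which passed an adjusted p of 0.05 in limma, and open points the 7 genes that did not.

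Foxc1, a regulator of mesenchyme, endothelium and outflow tract progenitors, was measured at 257, 267 and 295 normalized counts in wild-type replicates 1 to 3 and at 137, 146 and 199.8 in deletion replicates 1 to 3. Every deletion library lay below every wild-type library, and deletion replicate 3 was the closest to the wild-type values. The means were 273 ± 19.7 and 161 ± 33.9 (SD, n = 3), or −0.77 in log2 fold change (SE 0.16; limma, adjusted p = 0.0317). By exact permutation (two-sided), p was 0.1, which no comparison of 3 with 3 can go below. Foxc1 was also called by edgeR (adjusted p = 0.0337) and DESeq2 (adjusted p = 0.0012) on recovered reads. The call ended without wild-type replicate 3 (−0.72, adjusted p = 0.123), without deletion replicate 1 (−0.67, adjusted p = 0.119) and without deletion replicate 2 (−0.71, adjusted p = 0.15, all limma), fits that have fewer libraries.

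Foxc2, the paralogue of Foxc1 with overlapping roles in vessels and somites, was measured at 406, 413 and 415 normalized counts in wild-type and at 354, 433 and 373 in deletion libraries. Deletion replicate 2 was above all wild-type libraries and the other deletion libraries were below them, so the groups overlapped. Foxc2 did not pass, with means of 412 ± 4.69 and 386 ± 41.3 (SD, n = 3) and a log2 change of −0.10 (SE 0.10, limma adjusted p = 0.626). With a dependence on length and GC removed, it was −0.25 (adjusted p = 0.207, limma).

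The ratio of Foxc1 to Foxc2 was 0.631, 0.647 and 0.709 in wild-type libraries and 0.388, 0.337 and 0.536 in deletion libraries, with no overlap. The Foxc1 log2 fold change lay 0.68 below that of Foxc2 (exact two-sided permutation p = 0.1, n = 3 per group). That is the smallest p this design allows, and it was 0.3 after adjustment over the 6 pairs of paralogues compared. The plot of paralogue ratios shows this pair beside Foxo1 and Foxo3, and Foxp1 and Foxp4.

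**Figure D3:**
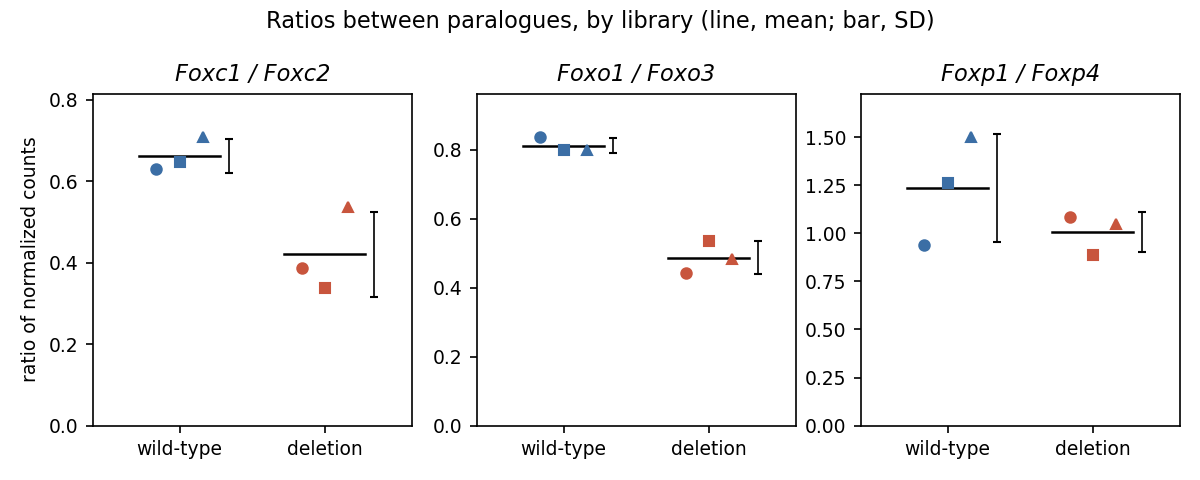
Ratio of the normalized counts of 2 paralogues (y axis, from 0) in each wild-type (blue) and deletion (red) library, with the mean as a line and the SD as a bar. The Foxc1 to Foxc2 and Foxo1 to Foxo3 ratios are lower in all deletion libraries, while the Foxp1 to Foxp4 ratios overlap.

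The stretch upstream of the annotated start of each gene that fell is shown because Hand2 is a basic helix-loop-helix factor, a class that binds E-boxes, and because forkhead factors can bind the motif GTAAACA. Sequences are from RefSeq on GRCm38.p6, a build other than that of the deposited counts. RefSeq entries were matched for 6 of the 9 members. Each line gives the 250 bases before the start site, 5′ to 3′ along the gene, with E-boxes (CANNTG, the same on either strand) in capitals. Foxo3, whose values lay the other way, is printed beside the genes that fell.
Foxc1, chr13:31806396-31806645, plus strand: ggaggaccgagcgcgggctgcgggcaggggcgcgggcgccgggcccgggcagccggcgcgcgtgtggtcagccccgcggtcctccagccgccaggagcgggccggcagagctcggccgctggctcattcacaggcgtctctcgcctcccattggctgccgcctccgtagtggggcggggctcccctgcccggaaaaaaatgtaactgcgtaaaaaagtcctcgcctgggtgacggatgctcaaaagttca
Foxo1, chr3:52268087-52268336, plus strand: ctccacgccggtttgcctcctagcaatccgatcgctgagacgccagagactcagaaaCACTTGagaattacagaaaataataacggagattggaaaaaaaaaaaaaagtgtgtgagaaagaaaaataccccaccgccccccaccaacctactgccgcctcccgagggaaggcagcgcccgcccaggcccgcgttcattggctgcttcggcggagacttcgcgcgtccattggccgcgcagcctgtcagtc
Foxo3, chr10:42276696-42276945, minus strand: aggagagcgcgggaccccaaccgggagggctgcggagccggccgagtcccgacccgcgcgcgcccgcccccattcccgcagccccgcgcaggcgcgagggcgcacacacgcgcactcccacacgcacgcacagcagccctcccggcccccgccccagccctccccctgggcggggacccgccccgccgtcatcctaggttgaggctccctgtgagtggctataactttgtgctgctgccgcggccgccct
The Foxo1 stretch held 1 E-box, CACTTG, beginning 193 bases before the start site, and the stretches of Foxc1 and Foxo3 held 0. An E-box was present in 66.2% of 32817 promoter stretches of the same length. None of the 3 held GTAAACA or its complement TGTTTAC, which 3.16% of all stretches did. The G and C content was 70.8% for Foxc1, 56% for Foxo1 and 76.4% for Foxo3. These matches describe the letters of this window and say nothing of binding.

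Foxo1, the Foxo factor needed for embryonic vessels, was measured at 862, 857 and 975 normalized counts in wild-type libraries and at 639.6, 691 and 658 in deletion libraries. All 3 deletion values lay below the lowest wild-type value. Foxo1 fell from 898 ± 66.8 to 663 ± 26.0 (SD, n = 3), a log2 change of −0.44 (SE 0.08, limma adjusted p = 0.0243; exact permutation p = 0.1). It was also called by edgeR (adjusted p = 0.0248) and DESeq2 (adjusted p = 0.00155). The call ended without wild-type replicate 3 (−0.37, adjusted p = 0.0868) and without deletion replicate 1 (−0.41, adjusted p = 0.113), 2 (−0.47, adjusted p = 0.0915) or 3 (−0.43, adjusted p = 0.0937, all limma), in fits with fewer libraries.

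Foxo3, a paralogue under the same control by Akt, was measured at 1029.5, 1073 and 1222 normalized counts in wild-type libraries and at 1446, 1288 and 1364 in deletion libraries. The groups did not overlap, in the direction opposite to Foxo1. Foxo3 did not pass in limma, with means of 1108 ± 101 and 1366 ± 79.1 (SD, n = 3) and a log2 fold change of 0.30 (SE 0.08, adjusted p = 0.0805). It was called higher in DESeq2 (0.31, adjusted p = 0.0294) and after rescaling to equal totals without haemoglobin genes (0.35, adjusted p = 0.0445, limma). Once a dependence on length and GC was removed, the value was 0.20 (adjusted p = 0.246, limma).

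The ratio of Foxo1 to Foxo3 was 0.837, 0.799 and 0.798 in wild-type libraries and 0.442, 0.536 and 0.482 in deletion libraries. Deletion ratios were all below the wild-type ratios, which lay close together. The log2 fold changes of the 2 genes differed by −0.74 (exact two-sided permutation p = 0.1, n = 3 per group, the smallest possible; 0.3 adjusted over 6 pairs). With Foxo1 lower and Foxo3 higher in every deletion library, the ratios had to separate. The test of the ratio therefore adds no evidence beyond the values of the 2 genes. Foxo4, the third widely expressed member of the family, did not pass either, with a log2 change of −0.18 (limma adjusted p = 0.204). Its groups did not overlap, at 2955, 2908 and 2929 normalized counts in wild-type and 2579, 2845 and 2341 in deletion libraries. Of the summed Foxo1, Foxo3 and Foxo4 counts, the wild-type libraries gave Foxo1 17.8%, 17.7% and 19.0%, and the deletion libraries 13.7%, 14.3% and 15.1%. The corresponding shares of Foxo3 were 21.2%, 22.2% and 23.8%, against 31.0%, 26.7% and 31.3% after deletion. The sum of the 3 genes was 4936 ± 164 in wild-type and 4617 ± 234 normalized counts in deletion libraries (SD, n = 3).

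Foxp4, a repressor of the Foxp family expressed in the early heart, was measured at 1989.8, 1854 and 1483 normalized counts in wild-type and at 1972, 2266 and 2359 in deletion libraries. The groups overlapped, since wild-type replicate 1 lay above deletion replicate 1. Foxp4 did not pass, with means of 1776 ± 262 and 2199 ± 202 (SD, n = 3) and a log2 change of 0.31 (SE 0.11, limma adjusted p = 0.146). With length and GC removed it was 0.11 (adjusted p = 0.463, limma). Foxp2, known best for its role in neural circuits and lung, was measured at 210.0, 162 and 124 normalized counts in wild-type and 199, 187 and 302 in deletion libraries. Deletion replicate 3 was high and the other values of both groups intermingled. The change was 0.47 on the log2 scale (SE 0.23; limma, adjusted p = 0.268).

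Foxp1, which acts in outflow tract septation and myocyte proliferation, had 1871, 2339.7 and 2227.5 normalized counts in wild-type and 2143, 2011 and 2469.9 in deletion libraries. The groups overlapped throughout, at 2146 ± 245 and 2208 ± 236 (SD, n = 3), with a log2 change of 0.04 (SE 0.10, limma adjusted p = 0.852). The difference in log2 fold change was −0.27 between Foxp1 and Foxp4, −0.43 between Foxp1 and Foxp2 and 0.15 between Foxp2 and Foxp4. Exact two-sided permutation p-values were 0.3, 0.3 and 0.7 (n = 3 per group; 0.45, 0.45 and 0.7 adjusted over the 6 pairs), which does not show that the 3 genes changed alike.

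Foxf1, a hedgehog-responsive factor of splanchnic mesenchyme, was measured at 152, 72.1 and 43.9 normalized counts in wild-type and at 47.5, 85.4 and 169.6 in deletion libraries. The highest library of each group had over 3 times the lowest (3.46-fold and 3.57-fold), and the groups overlapped. Foxf2, its paralogue in gut and craniofacial mesenchyme, was the lowest member, at 52.2, 16.9 and 30.2 normalized counts in wild-type and 16.9, 36.2 and 27.0 in deletion libraries. Wild-type replicate 1 was the highest library for Foxf2 and the second highest for Foxf1. Neither gene passed, with log2 fold changes of 0.17 (SE 0.50, adjusted p = 0.879) for Foxf1 and −0.22 (SE 0.42, adjusted p = 0.804, limma) for Foxf2. The sign for Foxf1 turned when replicate 3 of either group was left out (−0.24 for wild-type, −0.30 for deletion), and that for Foxf2 when replicate 1 of either group was left out (0.17 and 0.059). Foxf1 lay 0.39 above Foxf2 in log2 change (exact permutation p = 0.6, n = 3 per group, adjusted 0.7). With standard errors near these sizes, a change comparable to that of Foxc1 was not detectable for the Foxf genes.

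Genes of the foregut epithelium, a tissue beside the heart, also varied by library. The endodermal forkhead gene Foxa1 had 88.5, 16.9 and 9.15 normalized counts in wild-type and 52.8, 22.3 and 63.7 in deletion libraries, and the hedgehog ligand gene Shh had 154, 6.23 and 16.5 and then 41.2, 35.3 and 74.5. Wild-type replicate 1 and deletion replicate 3, the libraries highest in Foxf1, were also the highest in both of these genes, which were chosen after their values were seen. Over the 9 foregut markers measured, wild-type replicate 1 was the highest of its group in 8, but deletion replicate 3 in only 4. Pax8 was lowest of all libraries in deletion replicate 3 (2.16 normalized counts), and Nkx2-1 and Cdh1 were higher in deletion replicate 2 (136 and 176) than there (64.8 and 140.4). Over the 9 of 10 foregut markers measured, the summed level ran from 4418 to 6663 normalized counts in wild-type libraries. In deletion libraries it ran from 5324 to 5811, and replicate 3 had the lowest sum. The keratin genes Krt8 and Krt18 made up most of the sum in every library. Both had their lowest value of the deletion group in replicate 3 (2959 for Krt8, 1733 for Krt18). The low sum of that library therefore says little about the less abundant foregut markers, such as Foxa1 and Shh. Of the 9, 0 were called in limma, edgeR or DESeq2. An unadjusted p under 0.05 in limma was found for 1 of the 9, against 21.4% of all genes. Without wild-type replicate 1, limma called 2 higher. The defining marker Foxa2 was not among the rows. Of 7 measured of 10 splanchnic and lung mesoderm markers 0 were called in limma or edgeR and 1 was called lower in DESeq2, with a sum from 6661 to 7783 in wild-type and from 6505 to 6884 in deletion libraries. Leaving out 1 library gave 0 to 1 called lower (limma). Tbx5 (means of 2479 in wild-type and 2829 in deletion libraries) and Hand1 (2284 and 1752) had the largest parts of that sum. Wild-type replicate 1 and deletion replicate 3 were each the highest of their group in 4 of the 7. Osr1 was 1 of them in both groups (251 and 267). The part of these cells in the Foxf values was not tested. A further fit, chosen after seeing the data, left out wild-type replicate 1 and deletion replicate 3. In that fit Foxf1 had a log2 fold change of 0.18 and Foxf2 of 0.13. Foxc1 was past the threshold there (−0.98, adjusted p = 0.0163), and Foxo1 was not (−0.46, adjusted p = 0.0562, limma). Deletion replicate 3 had the Foxc1 value closest to wild-type, so leaving it out enlarges the Foxc1 change.

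**Figure D4:**
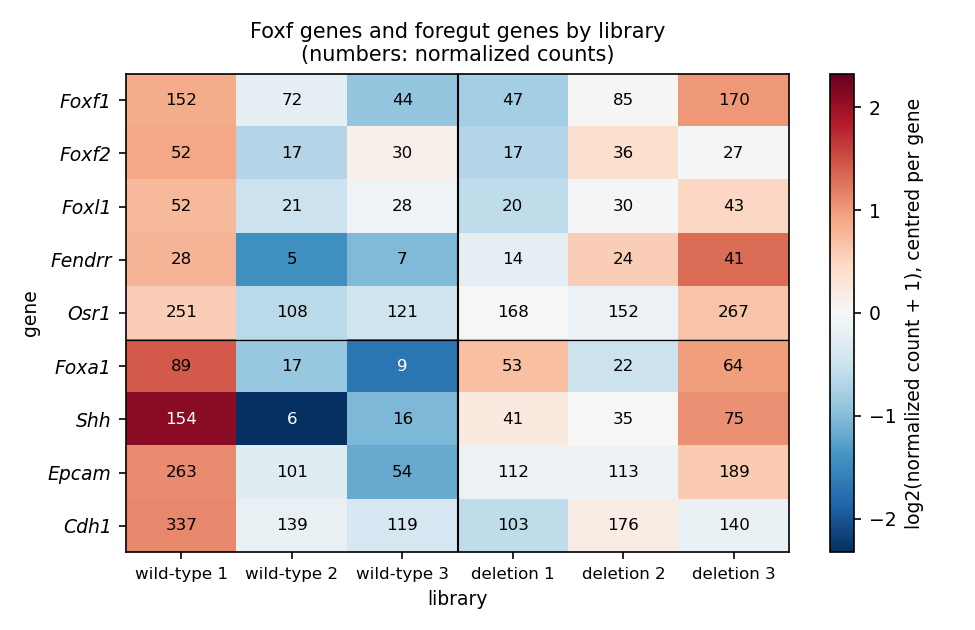
Normalized counts (numbers in the cells) of Foxf1, Foxf2, their neighbours Foxl1 and Fendrr, Osr1 and 4 foregut genes in the 6 libraries (columns), coloured by log2(normalized count + 1) centred per gene. Foxf1 (152 and 169.6), Foxa1 (88.5 and 63.7) and Shh (154 and 74.5) are highest in wild-type replicate 1 and deletion replicate 3, whereas Cdh1 is higher in deletion replicate 2 (176) than in deletion replicate 3 (140.4).

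The Foxc and Foxf genes lie in a pair of gene clusters that are old duplicates of each other. In the RefSeq annotation Foxq1, Foxf2, Foxc1 and Gmds follow each other on chromosome 13, and Fendrr, Foxf1, Mthfsd, Foxc2 and Foxl1 on chromosome 8, the chromosome that also carries Hand2. Hand2 is not close to that cluster. Counting named protein-coding and long non-coding RNA genes along chromosome 8, Hand2 is number 337, Foxf1 908 and Foxc2 910. Of the 12 measured genes on the list of both neighbourhoods, Foxf1 included, 0 were called in limma or edgeR, and DESeq2 called 1 higher. An unadjusted p under 0.05 in limma was found for 4 of the 12, against 21.4% of all genes. The list's median log2 fold change was −0.07, against −0.01 for all genes. Gmds, next to Foxc1 and encoding an enzyme of GDP-fucose synthesis, had 381, 349 and 360 normalized counts in wild-type and 262, 318 and 300.2 in deletion libraries (−0.31 in log2, limma adjusted p = 0.137). Its groups did not overlap. The log2 fold changes of the other chromosome 13 neighbours were −0.14 for Exoc2 and −0.19 for Dusp22.

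Around Foxf1 and Foxc2, the long non-coding RNA Fendrr, transcribed away from Foxf1, had 28.4, 5.34 and 7.32 normalized counts in wild-type and 13.7, 24.1 and 41.0 in deletion libraries (1.11 in log2, limma adjusted p = 0.319). Its high libraries were those of Foxf1, and whether reads were counted by strand is unknown. The forkhead gene Foxl1 had a log2 fold change of −0.10, Mthfsd 0.04, Fbxo31 −0.05, Map1lc3b −0.20, Zcchc14 0.18, Gse1 0.30 and Irf8 −0.79 (all with an adjusted p above 0.05, limma). With length and GC removed, Zcchc14 had 0.029, Gse1 0.14 and Fbxo31 −0.19. Irf8, a factor of myeloid cells, was low in all libraries, from 28.4 to 33.9 in wild-type and 14.8 to 21.6 normalized counts in deletion libraries.

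Levels were compared between members per kilobase of the longest annotated transcript (GENCODE M21), as normalized counts per kb. In wild-type hearts Foxp4 was highest at 444 ± 65.5, followed by Foxp1 at 299 ± 34.1, Foxo3 at 162 ± 14.7, Foxc2 at 151 ± 1.72, Foxo1 at 104 ± 7.7, Foxc1 at 46.7 ± 3.38, Foxf1 at 37.0 ± 23.2, Foxp2 at 24.5 ± 6.34 and Foxf2 at 14.01 ± 7.55 (SD, n = 3). The library ranges of Foxo3 and Foxc2 overlapped, as did those of Foxc1 and Foxf1, of Foxf1 and Foxp2, and of Foxp2 and Foxf2. Those of the paralogues Foxf1 and Foxf2 overlapped as well. In deletion hearts Foxc1 stood at 27.5 ± 5.81, beside Foxf1 at 41.7 ± 25.9 and Foxp2 at 33.9 ± 9.39 per kb, with overlapping library ranges, and Foxo1 at 76.5 ± 2.99. The longest transcript need not be the one used in the heart.

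Among the 13 other forkhead genes measured of 35 listed, 0 passed in limma, 0 in edgeR and 1 higher in DESeq2. An unadjusted p under 0.05 in limma was found for 3 of the 13, against 21.4% of all genes. The median log2 fold change of the 13 was 0.08, between −0.18 for Foxo4 and 0.77 for Foxa1. The smallest p-values were those of Foxk1, from 2017 ± 119 to 2368 ± 77.0 normalized counts (0.23 in log2, limma adjusted p = 0.0899), and Foxj2, from 579 ± 26.2 to 689 ± 37.0 (0.25, adjusted p = 0.119). With length and GC removed they were 0.088 (adjusted p = 0.499) and 0.14 (adjusted p = 0.37, limma).

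Of 15 measured partners and targets of Foxc factors, 1 rose and 0 fell in limma, with a median log2 fold change of 0.24. It was Tbx1, a T-box gene of the pharyngeal region that Foxc factors are known to activate, at 85.1, 32.9 and 19.2 normalized counts in wild-type and 136, 130.0 and 168 in deletion libraries (1.90 in log2, limma adjusted p = 0.0495). Its direction was opposite to that of Foxc1, and edgeR called 0 genes of the list in either direction, DESeq2 called 3 higher and 1 lower, and 9 had an unadjusted p under 0.05 in limma. The Tbx1 call also ended without wild-type replicate 2 or 3 or without deletion replicate 1, 2 or 3, with adjusted p from 0.0596 to 0.163 (limma). The call was likewise lost with the F or M label as a covariate (adjusted p = 0.0633), with a mean of at least 50 (0.0501) and with no intensity trend (0.147, limma). Without wild-type replicate 1, 4 genes of the list were called higher. The groups did not overlap for 7 of the 15, against 27.4% of all genes, and the 9 with an unadjusted p under 0.05 stand against 21.4%. In the list of hedgehog input and Foxf targets, 1 of 15 measured genes rose and 1 fell, and the median was 0.33. Kdr, the main VEGF receptor, rose from 4133 ± 146 to 5193 ± 299 normalized counts (SD, n = 3; 0.33 in log2, limma adjusted p = 0.0317), and Tek, the angiopoietin receptor, fell from 3401 ± 122 to 2670 ± 72.8 (−0.35, adjusted p = 0.0178). Both calls ended without wild-type replicate 3 or without deletion replicate 1, 2 or 3, with adjusted p from 0.069 to 0.0957 for Tek and from 0.0608 to 0.16 for Kdr (limma). With no intensity trend both were lost (0.0813 for Tek and 0.117 for Kdr), and Kdr also with the F or M label as a covariate (0.0519) and with length and GC removed (0.278 in log2, adjusted p = 0.0587, limma). The hedgehog pathway genes of that list did not pass with all libraries, but without wild-type replicate 1 the number of genes of the list called higher was 6 rather than 1.

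Of 15 corepressor partners of Foxp factors, 0 passed in limma (3 had an unadjusted p under 0.05), 0 in edgeR and 1 higher in DESeq2. The deacetylase gene Hdac1 had a log2 fold change of −0.20. Of 22 genes for PI3K, Akt, 14-3-3 proteins and other regulators of Foxo, 0 passed in limma (3 had an unadjusted p under 0.05), 0 in edgeR and 1 lower in DESeq2. Both counts of 3, here and among the corepressor partners, stand against 21.4% of all genes. The 14-3-3 gene Ywhab had −0.23 and the kinase subunit gene Pik3ca −0.22. Of 29 measured Foxo target genes, 2 rose and 0 fell, and the median was 0.05. They were Bnip3, a mitophagy gene that hypoxia also induces, from 6335 ± 381 to 8278 ± 546 normalized counts (0.39 in log2, limma adjusted p = 0.0263), and the cyclin gene Ccng2, from 997 ± 83.3 to 1317 ± 102 (0.40, adjusted p = 0.0418). Both calls ended without wild-type replicate 3 or without deletion replicate 1, 2 or 3, and that of Ccng2 also without wild-type replicate 2, with adjusted p from 0.0507 to 0.128 for Bnip3 and from 0.0517 to 0.167 for Ccng2 (limma). Both were lost with no intensity trend (0.105 for Bnip3 and 0.128 for Ccng2), and Ccng2 with the F or M label as a covariate (0.0615, limma). The cell cycle inhibitor genes Cdkn1a and Cdkn1b, named after their values were seen, had −0.34 and 0.12 and did not pass.

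Of 8 cushion mesenchyme markers 3 fell, Twist1 (log2 fold change −1.14), Msx1 (−0.58) and Postn (−1.27), and 0 rose, with a summed level from 35890.5 to 45251 in wild-type and from 39617 to 41538 normalized counts in deletion libraries. Vcan made up most of that sum, with means of 37650 in wild-type and 37392 in deletion libraries (−0.0028 in log2). The sum therefore says little about the markers that fell. Of the 5 measured of 10 paraxial and cranial mesoderm markers 1, Meox1 (0.90, adjusted p = 0.0496, limma), rose, and the summed level ran from 981 to 1245 in wild-type and from 1573 to 2562 in deletion libraries. All 5 had a positive log2 change with an unadjusted p under 0.05 (limma), which 21.4% of all genes had in either direction. Most of that sum was Tbx18 (means of 815 in wild-type and 1369.7 in deletion libraries) and Tcf21 (193 and 363), which the epicardial list also holds. Of 10 endothelial and endocardial markers Kdr rose and Tek fell, and the median log2 fold change was 0.0092. Emcn had −0.39 and groups that did not overlap, just short of the threshold (limma adjusted p = 0.0505). Leaving out 1 library gave 0 to 2 of the 10 called lower and 0 to 1 higher (limma). The sum of the 10 ran from 23629 to 25258 in wild-type and from 24408 to 25438 in deletion libraries. Of 7 measured epicardial markers 0 were called in limma or edgeR, with a sum from 1558 to 2494 and from 2238 to 3848. Of those 7, 4 had an unadjusted p under 0.05 in limma, against 21.4% of all genes, and DESeq2 called 1 higher. Without wild-type replicate 2, limma called 3 epicardial markers higher. Of 5 measured of 9 neural crest markers 1, Ets1 (−0.30), fell, with Sox10 and Foxd3 not among the rows. Leaving out 1 library gave 0 to 3 cushion markers called lower, the 0 being without deletion replicate 1 or 2. The mesoderm list had 3 called higher when wild-type replicate 1 was dropped and 2 when wild-type replicate 2 was. The calls in the mesoderm and neural crest lists ended without wild-type replicate 3, or when any deletion replicate was dropped. The part of any of these cells in the fall of Foxc1 or Foxo1 was not tested. Primitive blood markers varied between libraries, with a sum from 119523 to 348862 in wild-type and from 84759 to 451587 in deletion libraries, and 0 of 8 were called in limma, edgeR or DESeq2 or had an unadjusted p under 0.05 in limma.

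The genes whose values over the 6 libraries were nearest to those of Foxc1, by root mean square distance of centred log2 values, were Cd200 (0.10), St8sia1 (0.10), Rai14 (0.12), Adam12 (0.12) and Capn5 (0.13). Rai14, an actin-associated protein gene, went from 2102 to 1135 normalized counts (log2 fold change −0.90), and Adam12, a metalloprotease-disintegrin gene, from 811 to 502 (−0.70). Those nearest to Foxo1 were Shroom4 (0.04), Msrb2 (0.05), Smap2 (0.05), Nudt2 (0.05) and Smim8 (0.05). Shroom4, an actin-binding protein gene, went from 866 to 660.4 normalized counts (−0.39) and Smap2, a regulator of vesicle traffic, from 1331 to 1002 (−0.41). Likeness over 6 libraries is a description, and a gene with the same group difference is near by construction.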

How the data were processed

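Per the labels' protocols, 300 ng of RNA per replicate went into a stranded mRNA kit and paired-end NovaSeq sequencing. The submitters' processing notes name STAR 2.7.9a, featureCounts (Subread 2.0.1), DESeq2 1.30.1 and, as builds, GRCm39 and mm39. The deposited signal is a normalized count per gene, as the authors' file names call it. For annotation, strand setting and gene filter, the settings were not given in the sources used here.

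Within a library, 100% of values (within 0.01) were integer multiples of a unit worth 1 read, which gave reads for edgeR 4.0.16 and DESeq2 1.42.0 as alternatives. The main test was limma 3.58.1 (R 4.3.3) with an intensity trend on log2(normalized count + 1), two-sided, Benjamini-Hochberg adjusted over 15330 genes, deletion minus wild-type. A mean of at least 10 was required. Single values were compared by exact permutation over libraries. The scripts were tested on simulated data. Transcript lengths came from GENCODE M21 on GRCm38, used for names, lengths and GC content (96.9% of genes).

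Named genes were the 9 members, all measured neighbours, up to 3 called genes per list (2 by smallest p where none was called), and the 5 genes nearest each called member. A gene that this rule names is not reported here. The members and lists were chosen with earlier results of these data known.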

Additional observations from a re-analysis of the deposited data

How the results depend on the processing

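Of the 9 forkhead genes, Foxc2, Foxp2 and Foxp4 kept their direction and stayed short of the threshold under every alternative run. With no intensity trend the calls of Foxc1 (log2 fold change −0.77, adjusted p = 0.0864) and Foxo1 (−0.44, adjusted p = 0.078, limma) ended, with 0 members, 73 genes lower and 73 higher. DESeq2 called Foxo3 (0.31), 1 member higher, and 600 genes lower and 539 higher, and equal totals without haemoglobin called Foxo3 (0.35), 1 member higher, and 393 genes higher. The median of all genes moved by at most 0.05 (log2) under a rescaling. The cause of these changes was not tested.

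The same replicate number did not pair libraries: correlations of same-numbered deviations were −0.03, −0.11 and −0.10, and no library correlated best with its own number. With a replicate block 110 genes were lower and 96 higher, and 1 member, Foxc1 (adjusted p = 0.0449), was lower, Foxo1 having −0.44 (adjusted p = 0.0655, limma). The block also ended the calls of Tbx1 (adjusted p = 0.0671), Tek (0.0646), Kdr (0.0878), Bnip3 (0.0742) and Ccng2 (0.0562, limma).

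Leaving out 1 replicate at a time gave log2 fold changes from −0.94 to −0.67 for Foxc1, −0.47 to −0.37 for Foxo1, −0.30 to 0.64 for Foxf1, −0.62 to 0.17 for Foxf2 and −0.05 to 0.11 for Foxp1, with 0 to 2 members lower, 61 to 695 genes lower and 42 to 466 higher. Differences between paralogues ran from −0.033 to 0.73 for Foxf1 and Foxf2 and from −0.0092 to 0.31 for Foxp2 and Foxp4. Among neighbours, Fbxo31 had 0.0098 without wild-type replicate 2, Mthfsd −0.0092 without wild-type replicate 3 and −0.019 without deletion replicate 2, and Foxl1 0.25 without wild-type replicate 1 and 0.17 without deletion replicate 1. With the length and GC trend removed Mthfsd had −0.084. Without wild-type replicate 1 and deletion replicate 3, an alternative chosen after seeing the data, Foxf2 had 0.13, Foxp1 −0.14, Fbxo31 0.026, Foxc1 −0.98 and Foxo1 −0.46 (adjusted p = 0.0562, limma), with 1 member and 144 genes lower.

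Under the recorded file assignment, which mixes the title groups, 0 members and 0 genes were called in either direction (limma). Log2 fold changes were 0.40 for Foxc1, 0.12 for Foxf2, 0.057 for Foxo1, −0.20 for Foxo3, −0.13 for Foxk1, −0.18 for Foxj2, −0.031 for Gse1, −0.023 for Zcchc14, 0.38 for Irf8, 0.14 for Gmds, 0.082 for Map1lc3b, 0.17 for Dusp22, 0.0079 for Exoc2, 0.074 for Fbxo31 and 0.49 for Foxl1. They were 0.059 for Tek, −0.19 for Kdr, 0.037 for Hdac1, 0.045 for Ywhab, 0.0086 for Pik3ca, −0.19 for Bnip3, −0.18 for Ccng2, 0.32 for Cd200, 0.42 for St8sia1, 0.46 for Rai14, 0.37 for Adam12, 0.40 for Capn5, 0.059 for Shroom4, 0.10 for Smap2 and 0.034 for Nudt2. The paralogue differences were 0.41 for Foxc1 and Foxc2 and 0.26 for Foxo1 and Foxo3. With 3 libraries a group, and 16 reads in the lowest Foxf2 library, small changes of the Foxf genes were not detectable.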
